A study of Mus musculus with 84 samples.

Results

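The choroid plexus epithelium genes were 10 of the 43629 genes in the count table: Ttr, Kl, Cldn2, F5, Kcnj13, Clic6, Folr1, Sostdc1, Otx2 and Enpp2. They were chosen by gene symbol, each symbol matched 1 row, and all 10 were among the 16320 genes with enough counts to be tested. RNA came from the central nucleus of the amygdala (CeA), cut bilaterally by laser from thionin-stained frozen sections of 84 Heterogeneous Stock Collaborative Cross mice, an outbred population, with 1 poly(A)-selected stranded library per animal. The animals were 43 females and 41 males with a median age of 15 weeks when testing began, and all of them, in both sexes, had a free choice between water and 10% ethanol for 13 weeks. No ethanol-naive animals were analysed here, up to 3 animals could share a family, and the study set expression against preference, the share of drinking volume taken from the ethanol tube. Mean preference over the 13 weeks ran from 0.0435 to 0.759 with a median of 0.229 in females, and from 0.0262 to 0.713 with a median of 0.153 in males.

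The choroid plexus is a folded sheet of epithelium inside the brain ventricles that secretes cerebrospinal fluid. Its cells pump ions across a tight but cation-permeable barrier, carry hormones and vitamins from blood to fluid, and release proteins into it. The amygdala is no site of this epithelium, but the temporal horn of the lateral ventricle, which holds choroid plexus, lies close to it. Otx2 is a homeodomain transcription factor that the epithelium needs for its development and upkeep, and Ttr encodes transthyretin, a thyroid hormone carrier that is its best known secreted protein.

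The libraries held 24118965 to 42036566 counts. The labelled tissue was checked against 16 marker genes of CeA neurons, all of which had a median of at least 1 CPM (counts-per-million, with library totals scaled by edgeR's TMM factors), and their summed level was 1356 to 5082 CPM in females and 1309 to 5488 CPM in males. Sample titles carry sheet numbers in 4 ascending runs of 18, 18, 17 and 31 libraries, which were kept as a possible batch. Because each library is a bulk sample, more cells of a type and more RNA per cell cannot be told apart.

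All 10 genes varied widely between libraries, and the libraries lay spread between the ends of each range. The ends differed by gene. Enpp2 was never under 82.6 CPM, Clic6 and Kl were never under 1 CPM, and Otx2 never reached 100 CPM. Ttr ranged from 0.300 CPM through a median of 51.7 to 18792 CPM in females, and from 0.0988 through 182 to 23442 CPM in males. The lowest library, of male 3, held 3 Ttr counts, and the highest, of male 38, held 768331, which was 2.42% of all its counts (exact binomial 95% interval 2.41 to 2.42, counting error only). Ttr was under 1 CPM in 7 libraries, at 1 to 10 CPM in 28, at 10 to 100 CPM in 10 and at 100 CPM or more in 39. Of these 39 libraries, 30 had at least 1000 CPM. The class of 100 CPM or more held 18 of 43 females and 21 of 41 males, so both sexes covered the whole range. The 10 genes together took from 0.0107% to 2.89% of a library's counts, with a median of 0.0343%.

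No single wide gap between neighbouring libraries set an on group apart from an off group. The widest gap cannot decide whether the libraries form separate groups, since it can fall in a sparse tail. By class, Ttr had 28 libraries at 1 to 10 CPM, 10 at 10 to 100 CPM and 30 at 1000 CPM or more. The widest gap between neighbouring log2 CPM values of Ttr (prior count 2) was 1.17, or 6.80% of its range of 17.1, and it separated only the lowest library from the next. For the other 9 genes the widest gap took 5.49% (Folr1) to 11.3% (Enpp2) of the range. In Kl, Cldn2, Otx2 and Enpp2 that gap set 5 libraries above 79 others, and for Enpp2 it lay between 2026 and 3270 CPM. In Kcnj13 it set 10 libraries below 74 others, between 0.295 and 0.532 CPM. In F5 and Folr1 the widest gap fell nearer the middle. It set 54 libraries below 30 in F5, between 3.85 and 6.22 CPM, or 8.10% of the range. For Folr1 it set 47 below 37, between 1.69 and 2.61 CPM.

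**Figure D1:**
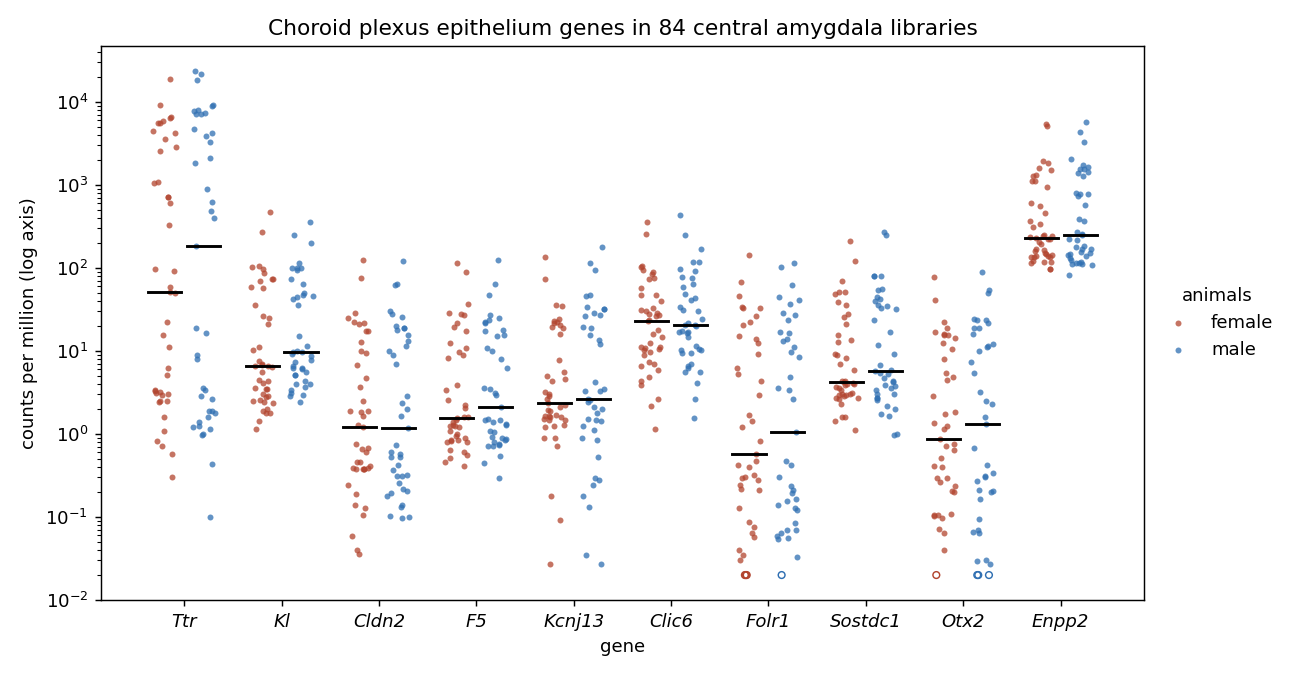
Level of each gene in CPM (log axis) in the 84 libraries, females left of males; each point is 1 library, the bar is the median of the sex, and open circles at the bottom are libraries with 0 counts. Ttr covers the range from 0.0988 to 23442 CPM, while no library has less than 82.6 CPM of Enpp2.

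Among the secreted and carrier proteins, Folr1, the folate receptor that brings folate into cerebrospinal fluid, had 0 to 142.03 CPM in females with a median of 0.576, and 0 to 114 CPM in males with a median of 1.06. It was listed at 0 in 4 libraries, 3 of females and 1 of a male, where a count of 0 allows up to 0.0983 to 0.108 CPM. Enpp2, which encodes autotaxin, the secreted enzyme that makes lysophosphatidic acid and that oligodendrocytes express too, had 96.5 to 5436 CPM in females with a median of 231, and 82.6 to 5641 CPM in males with a median of 252. Enpp2 thus reached at least 100 CPM in 81 of 84 libraries, against 39 for Ttr. F5, coagulation factor V, had 0.409 to 115 CPM in females with a median of 1.56, and 0.295 to 123 CPM in males with a median of 2.11.

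Sostdc1 encodes a secreted inhibitor of BMP and Wnt signalling. It had 1.11 to 210.7 CPM in females with a median of 4.18, and 0.964 to 272 CPM in males with a median of 5.71. Kl, which encodes the FGF23 coreceptor Klotho, had 1.16 to 477 CPM in females with a median of 6.54, and 2.44 to 362 CPM in males with a median of 9.66. For both genes the female and male ranges overlapped over nearly their whole length.

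Among the barrier and ion transport genes, Cldn2, the tight junction protein that forms cation pores, had 0.0360 to 125 CPM in females with a median of 1.23, and 0.0983 to 120 CPM in males with a median of 1.18. Kcnj13, the inward rectifier potassium channel of the apical membrane, had 0.0270 to 134.2 CPM in females with a median of 2.36, and 0.0272 to 177.1 CPM in males with a median of 2.67. Clic6, a chloride intracellular channel family member, had 1.15 to 354 CPM in females with a median of 23.2, and 1.54 to 437 CPM in males with a median of 20.3. Clic6 was thus never under 1 CPM, while Cldn2 was under 1 CPM in 41 libraries and Kcnj13 in 16. Otx2, the transcription factor, had 0 to 78.7 CPM in females with a median of 0.859, and 0 to 90.0 CPM in males with a median of 1.30, and was listed at 0 in 1 female and 3 males.

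Per exon length, the median levels were 67.5 RPKM (CPM per kilobase of exon) for Enpp2 and 45.6 RPKM for Ttr, and each of the pair was above the other in 42 of 84 libraries. Clic6 (5.25 RPKM) and Sostdc1 (2.87 RPKM) followed, and these neighbours were also split at 42 libraries each. Kcnj13 (2.04 RPKM) was above Kl (1.47 RPKM) in 63 of 84 libraries, and Kl was above Cldn2 (0.362 RPKM) in all 84. The lowest medians were those of Folr1 (0.305 RPKM), Otx2 (0.297 RPKM) and F5 (0.212 RPKM). Otx2 was above F5 in 48 libraries only, so the order at the bottom differed from library to library.

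RefSeq promoters of GRCm38.p6, from 250 bases before to 50 bases after a transcript start, were at hand for 5 of the 10 genes, 8 promoters in all. They were searched on both strands for TAATCC, the core motif bound by OTX homeodomains, and for the core promoter element TATAAA. The 3 below are shown because they hold TATAAA within 35 bases of the start or hold the OTX motif, with the matched letters in capitals.
Cldn2 promoter, chrX:139800558-139800857, plus strand: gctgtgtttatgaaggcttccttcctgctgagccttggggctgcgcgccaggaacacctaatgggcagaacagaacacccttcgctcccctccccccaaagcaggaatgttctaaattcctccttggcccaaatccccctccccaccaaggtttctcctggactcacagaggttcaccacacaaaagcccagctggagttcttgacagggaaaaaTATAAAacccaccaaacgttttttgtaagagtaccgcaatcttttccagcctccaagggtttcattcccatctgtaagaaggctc
Kcnj13 promoter, chr1:87394680-87394979, minus strand: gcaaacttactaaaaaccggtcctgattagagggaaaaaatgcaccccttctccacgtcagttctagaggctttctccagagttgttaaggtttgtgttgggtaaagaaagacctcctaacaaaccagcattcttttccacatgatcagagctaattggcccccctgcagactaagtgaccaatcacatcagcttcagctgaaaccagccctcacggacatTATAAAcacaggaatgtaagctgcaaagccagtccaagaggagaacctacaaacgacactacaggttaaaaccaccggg
Otx2 promoter 3, chr14:48665060-48665359, minus strand: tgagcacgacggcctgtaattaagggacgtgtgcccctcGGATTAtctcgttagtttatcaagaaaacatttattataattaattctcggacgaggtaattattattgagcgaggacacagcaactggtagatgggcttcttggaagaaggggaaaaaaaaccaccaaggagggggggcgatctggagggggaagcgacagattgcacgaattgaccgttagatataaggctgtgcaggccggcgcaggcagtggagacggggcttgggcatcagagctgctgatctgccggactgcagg
TATAAA stands 35 bases before the start in Cldn2 and 29 bases before it in Kcnj13. One more match lies 192 bases before the start of Otx2 promoter 1. These were 3 of the 8 promoters, against 13.6% of all 32851 promoters of the same length. TAATCC was present in 1 of the 8, as its reverse complement GGATTA far upstream in Otx2 promoter 3, against 7.06% of all promoters. In the windows of F5 and Kl neither motif was found.

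The genes lie apart in the genome. On build GRCm38 the table places Kcnj13 at chr1:87386363-87394729, F5 at chr1:164151838-164220277, Kl at chr5:150952607-150993809, Folr1 at chr7:101858331-101870788, Sostdc1 at chr12:36314169-36318452 and Otx2 at chr14:48657679-48667644. Enpp2 is at chr15:54838898-54920146, Clic6 at chr16:92485736-92541243, Ttr at chr18:20665250-20674324 and Cldn2 at chrX:139800828-139811386. In the GENCODE annotation of that build, exons of 4 of the genes overlap exons of another gene. These are Kcnj13 with Gigyf2, F5 with Gm16548, Otx2 with Otx2os1 and Gm49154, and Enpp2 with Gm26684. Only Gm49154 lies on the same strand as its partner. The strand setting of the counting is not given in the sources used here, so reads of such partners cannot be told apart with certainty.

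The 10 genes rose and fell together across animals. Over the 45 pairs of genes, Pearson's r of log2 CPM in 84 libraries ran from 0.783 (Kcnj13 with Clic6) to 0.962 (Cldn2 with F5) with a median of 0.913. Spearman's rho ran from 0.777 to 0.931 with a median of 0.841, and Kendall's coefficient of concordance over the 10 rankings was 0.866. Clic6 and Kcnj13 had the lowest median r with the other 9 genes, 0.862 each, and F5 (0.945) and Cldn2 (0.942) the highest. All pairs share the same libraries and scaling factors.

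**Figure D2:**
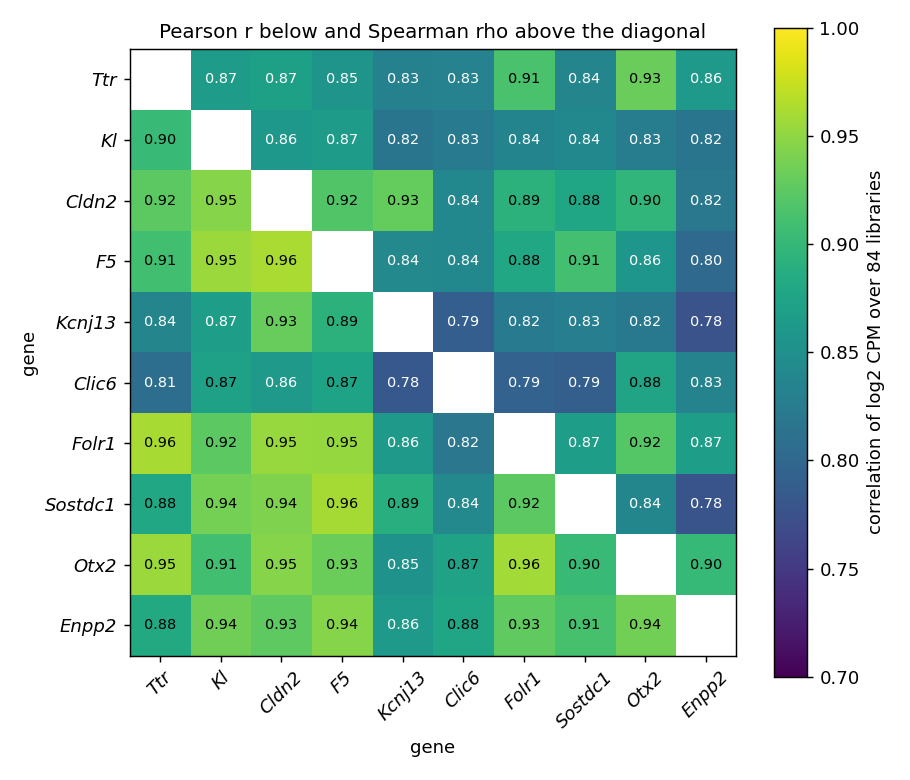
Correlation of log2 CPM between each pair of the 10 genes over 84 libraries, Pearson's r below the diagonal and Spearman's rho above it. Every cell lies between 0.777 and 0.962, and the rows of Kcnj13 and Clic6 hold the lowest values of r.

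Each of the 9 other genes was then set against Ttr. Otx2 (r = 0.955, rho = 0.931) and Folr1 (r = 0.961, rho = 0.914) followed it most closely, and Clic6 (r = 0.808, rho = 0.833) and Kcnj13 (r = 0.837, rho = 0.832) least. Cldn2 (0.924), F5 (0.909), Kl (0.903), Enpp2 (0.883) and Sostdc1 (0.879) lay between in r. All 9 relations passed a 2-sided permutation test (p = 1e-05, the smallest that 100000 permutations can give, adjusted over the 9 relations 1e-05, for r and for rho). Without the 2 libraries farthest from the median of Ttr, those of males 38 and 33, r ran from 0.797 (Clic6) to 0.959 (Folr1). Within females r ran from 0.776 to 0.957, within males from 0.841 to 0.966, and within the 4 runs of sheet numbers from 0.779 to 0.971.

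The genes differed from Ttr mainly in how much they changed. Per unit of log2 CPM of Ttr, log2 CPM of the other genes had slopes from 0.27 ± 0.02 (SE) in Clic6 and 0.28 ± 0.02 in Enpp2 to 0.55 ± 0.02 in Otx2 and 0.62 ± 0.02 in Folr1, where 1 would be a proportional change. All 9 slopes were thus under 1. The median regression lines of these genes on Ttr are straight in CPM, with a level above 0 at a Ttr of 0. On log axes any such line looks flat at the lowest Ttr and climbs later, so this shape is no finding about the genes. The genes themselves were not all flat at low Ttr. The highest Folr1 was 0.473 CPM in libraries under 10 CPM of Ttr and 1.69 CPM in those under 100 CPM. By median regression, the level at a Ttr of 0 was 141 CPM for Enpp2, 10.3 for Clic6, 3.62 for Kl, 2.96 for Sostdc1, 1.26 for Kcnj13 and 0.901 for F5. For Cldn2 (0.360 CPM), Otx2 (0.245 CPM) and Folr1 (0.0968 CPM) that level was lowest. That of Folr1 was under the 0.0983 to 0.108 CPM that a count of 0 allows, so it is no measured level.

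Set against each gene's own median, this fitted level at a Ttr of 0 was 60.2% of the median for Enpp2, 58.8% for Sostdc1 and 57.3% for F5. It was 50.0% for Clic6, 48.6% for Kcnj13 and 48.1% for Kl. It was 29.9% for Cldn2, 24.3% for Otx2 and 13.8% for Folr1, which were the genes whose low end came nearest to that of Ttr. In the 7 libraries with less than 1 CPM of Ttr, Kl still had 1.45 to 5.10 CPM, Sostdc1 2.15 to 5.95 CPM and Clic6 2.64 to 10.8 CPM. Folr1 had at most 0.325 CPM there, Otx2 at most 0.298 CPM and Cldn2 at most 0.390 CPM.

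**Figure D3:**
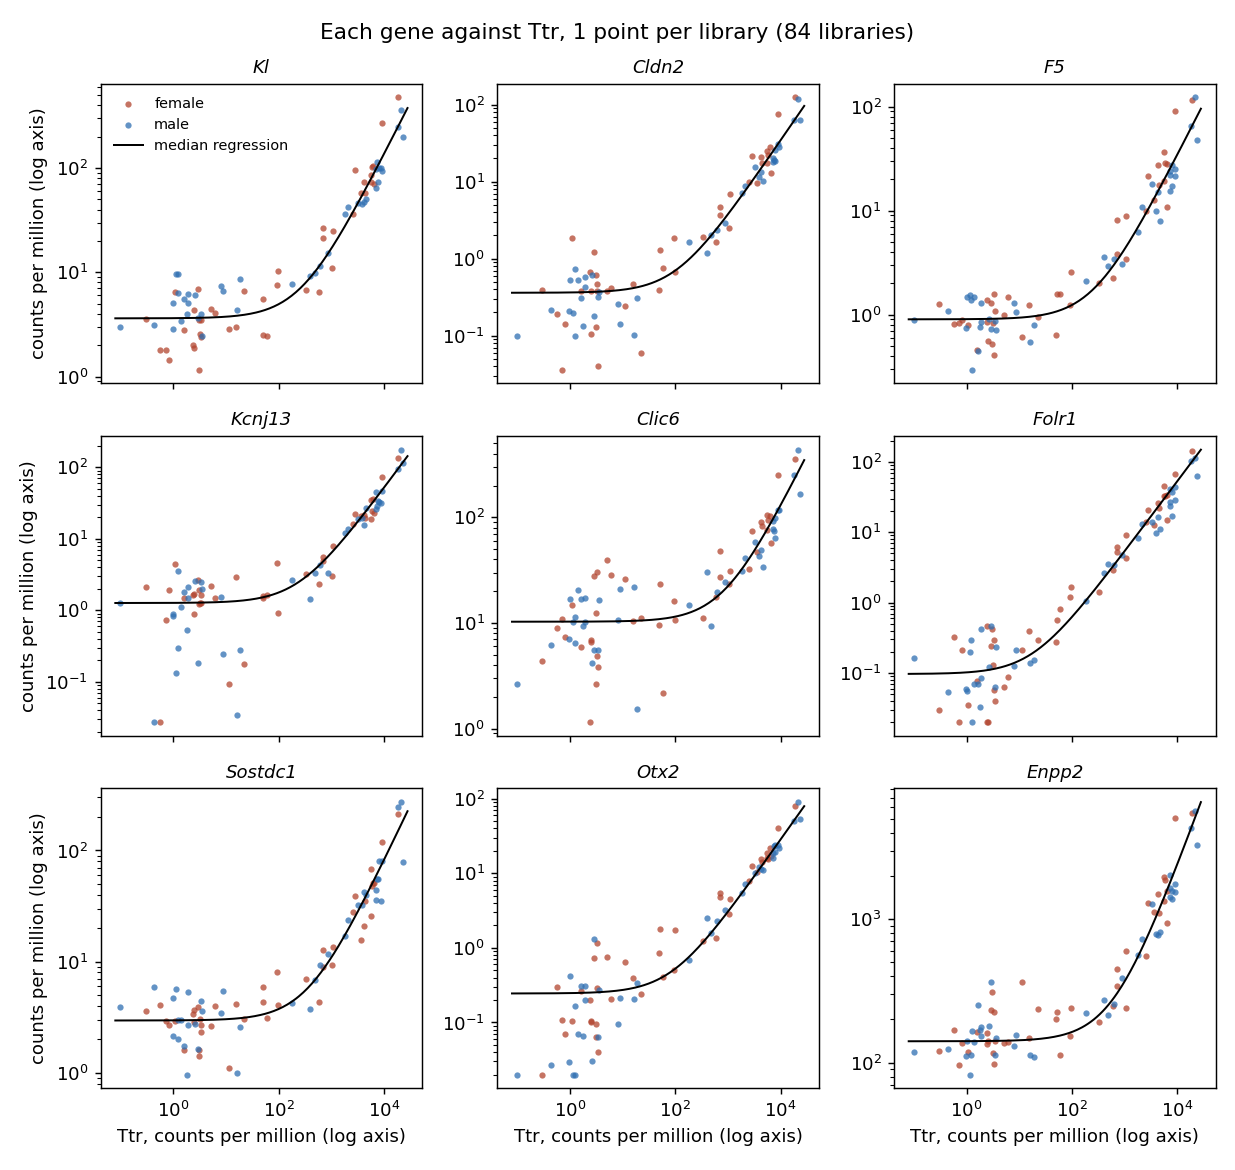
Each of the other 9 genes against Ttr, both in CPM on log axes, with 1 point per library (females and males by colour) and the median regression line on the linear scale; libraries with 0 counts are drawn at 0.02 CPM. Each line is straight in CPM and looks bent only because the axes are log. It starts at about 141 CPM for Enpp2 and 0.0968 CPM for Folr1.

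At the high end the genes followed Ttr more evenly. In the 30 libraries with at least 1000 CPM of Ttr, the level of Otx2 per 1000 CPM of Ttr lay between 2.22 and 4.48 CPM, a 2.02-fold span, and that of Kcnj13 between 2.82 and 8.21 CPM, a 2.91-fold span. F5 spanned 5.90-fold, from 1.68 CPM in female 28 to 9.93 CPM in female 17. The other 6 genes spanned 3.88-fold (Folr1) to 4.18-fold (Cldn2). Female 17 had the highest ratio for Cldn2, F5, Kcnj13, Otx2 and Enpp2, and male 38 the lowest for Kl, Clic6, Sostdc1 and Enpp2. Female 17 had 5056 CPM of Enpp2 beside 9071 CPM of Ttr, and male 38 had 3270 CPM of Enpp2 beside 23442 CPM of Ttr.

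By residual SD Kcnj13 departed most from the line on Ttr, with 1.42 on the log2 scale, against 0.78 for Enpp2, the smallest. The order depends on the measure. By the share of variance that the line explained (r squared), Clic6 was lowest with 0.653, then Kcnj13 with 0.700, and Folr1 was highest with 0.923. The residuals of Kcnj13 were drawn out by 10 libraries with less than 0.5 CPM of Kcnj13. These were 3 of females and 7 of males, in which Ttr was 0.435 to 22.5 CPM. The other 35 libraries with less than 100 CPM of Ttr had 0.532 to 4.64 CPM of Kcnj13. Of the 10 low libraries 0, 3, 1 and 6 came from the 4 runs of sheet numbers. Gigyf2, whose exons overlap Kcnj13 on the opposite strand, had 57.0 to 84.8 CPM in the 10 low libraries and 49.1 to 85.6 CPM over all 84, and its r with Kcnj13 was 0.120.

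Where 1 gene lay above its line on Ttr, the others tended to do so too. All 36 pairs of residuals correlated positively, from 0.259 (Clic6 with Folr1) to 0.806 (F5 with Sostdc1), with a median of 0.581. Since the relations bend, the residuals were also taken from a natural cubic curve with 4 degrees of freedom. Then 33 of 36 pairs were positive, from -0.0218 (Kl with Otx2) to 0.589 (Cldn2 with Kcnj13), with a median of 0.287. The closest pair after the curve was thus that of the tight junction protein and the potassium channel. All residuals, from the line or the curve, are taken from the same Ttr values. Variation of Ttr alone would move all of them the same way, so positive correlations can arise from it. Its part in them was not tested.

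The residuals were set against the mean z-scores of 15 marker lists of other cell types and regions, 135 relations in all, of which 35 passed at an adjusted permutation p under 0.05. From the curve 17 passed, and those with the list of other choroid plexus genes were no longer among them. Kcnj13 was higher, relative to Ttr, where leptomeningeal and fibroblast markers were higher (r = 0.535, permutation p = 1e-05, adjusted 0.000675; rho = 0.478, p = 2e-05, adjusted 0.00135). Its r was 0.501 with the 2 libraries of extreme score left out, in the runs 0.319, 0.307, 0.726 and 0.527, and from the curve 0.677. Cldn2 also rose with this list relative to Ttr (r = 0.319, adjusted permutation p = 0.0208), though its rho of 0.257 did not pass (adjusted permutation p = 0.102). From the curve its r was 0.469 (adjusted permutation p = 0.000225). The summed level of these 20 markers was 247 to 4513 CPM in females and 257 to 3518 CPM in males, and its part in the levels of Kcnj13 and Cldn2 was not tested.

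Clic6 was higher, relative to Ttr, where markers of CeA neurons were higher (r = 0.477, permutation p = 1e-05, adjusted 0.000675; rho = 0.424, p = 8e-05, adjusted 0.0027), with r = 0.391 without the 2 libraries and 0.625, 0.494, 0.594 and 0.185 within the runs. With markers of cortical and basolateral excitatory neurons the relation was negative (r = -0.456, permutation p = 4e-05, adjusted 0.00135; rho = -0.511, p = 1e-05, adjusted 0.00135), with r = -0.517 without the 2 libraries and -0.423, -0.233, -0.740 and -0.394 within the runs. From the curve the first was 0.600 and the second -0.498. Clic6 was not related to CeA neuron markers alone. Its r was also positive with endothelial and mural markers (0.385, adjusted permutation p = 0.00506) and striatal medium spiny neuron markers (0.375, adjusted 0.00519). Markers of neurons from the medial amygdala, the hypothalamus and the thalamus gave 0.372 (adjusted permutation p = 0.00519). From the curve r with these lists was 0.369, 0.485 and 0.460. The excitatory markers summed to 1672 to 9218 CPM in females and 1227 to 9708 CPM in males in these libraries, and their part in the level of Clic6 was not tested. Otx2 sloped the same way against the excitatory list (r = -0.443, permutation p = 4e-05, adjusted 0.00135), but its rho of -0.306 missed the threshold (permutation p = 0.00485, adjusted 0.0546). Its r within the runs was -0.555, -0.573, -0.598 and -0.304, and it was -0.381 without the 2 libraries.

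Enpp2, relative to Ttr, was set against the markers of myelinating oligodendrocytes, the other known source of its RNA. From the line on Ttr r was 0.275 (permutation p = 0.0117, adjusted 0.0456), and the rho of 0.260 did not pass (permutation p = 0.0175, adjusted 0.0993). From the curve the relation was closer and passed (r = 0.405, adjusted permutation p = 0.00255; rho = 0.403). Without the 2 libraries r from the line was 0.211, and within the runs it was 0.359, 0.270, 0.354 and 0.256. The 19 oligodendrocyte markers summed to 903 to 22061 CPM in females and 1329 to 16208 CPM in males. Enpp2 was not alone in this relation. Against the same list, r from the line was 0.378 for Clic6 (adjusted permutation p = 0.00519) and 0.330 for Otx2 (adjusted permutation p = 0.0168). By rho Clic6 passed (0.379, adjusted permutation p = 0.00765) and Otx2 did not (0.278, adjusted permutation p = 0.087). From the curve r was 0.378 for Clic6 and 0.356 for Otx2. The part of these cells in the levels of these genes was not tested.

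To find which other genes followed these 10, each of the 16320 genes was ranked by Spearman's rho with the mean z-score of the 10 over 84 libraries, as a description. The 20 most alike outside the set reached 0.890 to 0.927. Of them 12 stood in a list of 45 measured further choroid plexus epithelium genes: 1500015O10Rik (0.926), which encodes the secreted peptide augurin, the calmodulin-like Calml4 (0.919), the glucose transporter Slc2a12 (0.918), Wdr86, Drc7, Prr32, the bicarbonate cotransporter Slc4a5 (0.906), the monocarboxylate transporter Slc16a8 (0.906), the keratin Krt18, Lbp, Mfrp and the cation channel Trpv4 (0.897). Foxj1 (0.915), the transcription factor of motile cilia, was in the ependymal list. The remaining 7 matched no list by symbol: Rbm47, an RNA-binding protein with the highest rho of 0.927, 1700009P17Rik, the collagen Col8a2, the tight junction protein Tjp3, and Odf3b, Dnali1 and Nek5. Of the 30 ependymal symbols 28 were in the count table, so a listed gene named there by another symbol would be missed.

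Of the 45 further choroid plexus genes, 42 had a rho of at least 0.5 with a median of 0.824, against 810 of all 16320 genes (4.96%) and a median of -0.0194. Among them were Kcne2 (0.873), a potassium channel subunit listed at 0 in 9 libraries, and the water channel Aqp1 (0.843), which had 0.0983 to 135 CPM. The anion exchanger Slc4a2 (0.817), the prolactin receptor Prlr (0.810), the angiotensin-converting enzyme Ace (0.804) and the growth factor Igf2 (0.802) followed. The 3 under 0.5 were the chloride cotransporter Slc12a2 (0.439), Vat1l (0.346) and the serotonin receptor Htr2c (0.230). Htr2c had 57.2 to 212 CPM with a median of 132, so it was never low, and neurons express it too.

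Ependymal genes of the motile cilium moved with the 10 genes as well: all 27 measured had a rho of at least 0.5, with a median of 0.806. Their summed level was 67.6 to 643 CPM in females and 59.8 to 586 CPM in males. Of their defining genes, Ccdc153 had 0 to 20.7 CPM and was at 0 in 1 library, and Foxj1 had 1.66 to 88.5 CPM and was at 0 in none. How much of the shared pattern belongs to ependymal cells was not tested. Lists of other cells lay near the background, with median rho of -0.163 for leptomeningeal and fibroblast, -0.200 for endothelial and mural, 0.0402 for myelinating oligodendrocyte, 0.0857 for astrocyte, -0.148 for microglia and -0.0968 for CeA neuron markers. Outside the choroid plexus and ependymal lists the most alike genes were Rrh of the retinal pigment and pineal list (0.759), the desmosome gene Dsp of the hippocampal list (0.725), the glial transcription factor Sox9 (0.609), the fibroblast proteoglycan gene Dcn (0.597) and the receptor gene Calcrl (0.588).

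**Figure D4:**
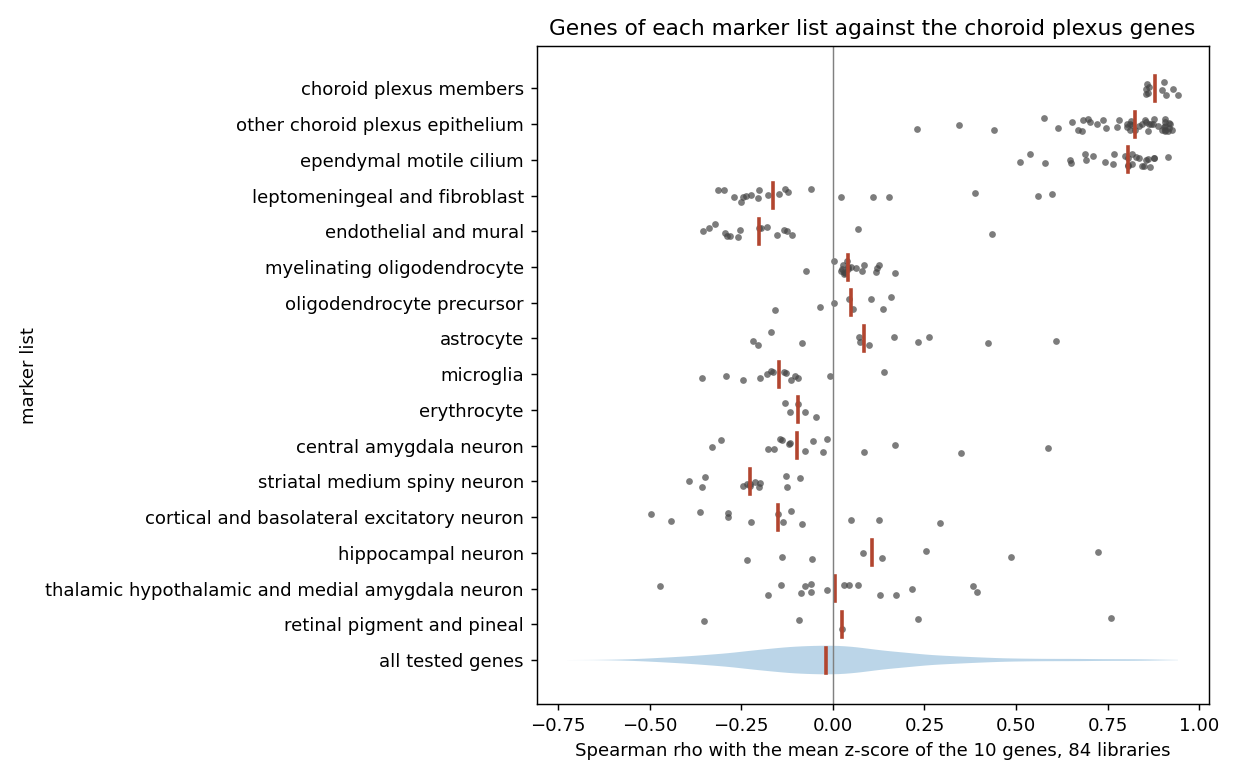
Spearman's rho of each gene of 16 marker lists with the mean z-score of the 10 genes over 84 libraries; points are genes, the members being scored against the other 9, red bars are medians, and the violin shows all 16320 tested genes. The other choroid plexus genes (median 0.824) and the ependymal genes (0.806) lie to the right, and the remaining lists lie around the median of all genes, -0.0194.

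No difference of the 10 genes by sex passed its test, and neither did that of Ttr by sheet run, the other 9 not being tested by run. The mean log2 CPM of Ttr in females minus that in males was -0.43 (2-sided permutation p = 0.717), and a permutation test of its ranks over the 4 runs gave p = 0.646. At least 100 CPM of Ttr was found in 1 of 9 females and 6 of 9 males of the first run, 2 of 9 and 4 of 9 of the second, 4 of 10 and 3 of 7 of the third, and 11 of 15 and 8 of 16 of the fourth. In edgeR's quasi-likelihood fit over all genes, log2 differences of females against males lay between -0.89 ± 0.82 (SE) for Ttr and -0.12 ± 0.49 for F5. None of the 10 passed at an adjusted p under 0.05, where 0.0919% of all tested genes did, and none had an unadjusted p under 0.05, against 3.9% of all genes.

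The design set expression against ethanol preference, and the 10 genes were read from edgeR fits over all 16320 genes. Each slope is a log2 change for a 0.5 rise in preference, given ± SE. Because the 10 genes rose and fell together (Kendall's coefficient 0.866), small p-values of several of them in a fit are not separate results. A count of them beside the share of all genes thus does not count independent genes. The same holds for the further choroid plexus and ependymal genes that moved with them. For mean preference in all 84 animals the slopes of the 10 genes ran from 0.89 ± 0.54 (Clic6) to 1.59 ± 0.67 (Kl). None passed at an adjusted p under 0.05, as for 0% of all genes, and Kl and Enpp2 had an unadjusted p under 0.05. In that fit 2.84% of all genes had such a p with a positive slope.

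In females the slopes on mean preference ran from 1.76 ± 0.69 (Clic6) to 2.75 ± 1.04 (Cldn2), with adjusted p from 0.477 (Kl and Enpp2) to 0.949 (Ttr) in edgeR, and none passed (0% of all genes). An unadjusted p under 0.05 was found for 9 of the 10, all but Ttr, against 4.94% of all genes with a positive slope. In limma-voom 2 of the 10 had such a p, beside 847 of 16320 genes in either direction. In males the edgeR slopes ran from -0.08 ± 0.77 (Clic6) to 0.46 ± 0.90 (Sostdc1), and none had an unadjusted p under 0.05, against 1.65% of all genes. The female slopes exceeded the male ones by 1.40 ± 1.24 (Sostdc1) to 2.75 ± 1.61 (Cldn2) in a fit of the difference itself, and none of the 10 passed (edgeR adjusted p = 0.999 for each, 0% of all genes) or had an unadjusted p under 0.05 (3.18% of all genes). In limma-voom the median of this difference over the 10 genes was 0.19, from -0.69 to 1.17, against 2.19 in edgeR.

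No gene of the set passed for week 1 preference. In females the slopes ran from 0.56 ± 1.54 (Ttr) to 1.23 ± 0.94 (F5). In males they ran from -0.25 ± 1.05 (Kcnj13) to 0.12 ± 0.72 (Enpp2). In neither sex did any have an unadjusted p under 0.05, against 2.26% of all genes in females and 5.17% in males, while 0% and 0.0368% of all genes passed at an adjusted p under 0.05. The female values depended on the fit: with sheet run as covariate all 10 genes had such a p (3.78% of all genes) and a median slope of 3.84, against 0.86 without it, and in limma-voom the median was -0.26 with 3 of 10 above 0. None of the 10 passed at an adjusted p under 0.05 in either. In all 84 animals none of the 10 passed, where 0.0306% of all genes did.

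For week 13 preference the slopes in females came close to the threshold without passing it. Enpp2 had 2.26 ± 0.50, F5 3.07 ± 0.71 and Kl 2.84 ± 0.70, each with an edgeR adjusted p of 0.0545. Cldn2 had 3.16 ± 0.83 (adjusted p = 0.0620), Kcnj13 2.51 ± 0.66 (0.0649), Clic6 1.88 ± 0.53 (0.0824), Sostdc1 2.14 ± 0.62 (0.0910), Folr1 3.25 ± 0.96 (0.105) and Otx2 2.69 ± 0.82 (0.121). Ttr, with the widest spread, had 2.51 ± 1.24 (adjusted p = 0.578). None of the 10 passed, where 0.0368% of all genes did, and 9 had an unadjusted p under 0.05, against 5.52% of all genes with a positive slope.

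In males the slopes on week 13 preference ran from -0.02 ± 0.74 (F5) to 0.37 ± 0.66 (Sostdc1), with no unadjusted p under 0.05 (3.74% of all genes). The difference of the female and male slopes ran from 1.78 ± 0.97 (Sostdc1) to 3.16 ± 1.31 (Cldn2). None of the 10 passed for this difference, where 0.00613% of all genes did, and 7 had an unadjusted p under 0.05 (smallest edgeR adjusted p = 0.637, of F5), against 2.91% of all genes with a positive one. In all 84 animals the week 13 slopes ran from 1.01 ± 0.44 (Clic6) to 1.71 ± 0.75 (Folr1), with adjusted p of 0.659 or higher in edgeR, 0% of all genes called and 9 unadjusted p under 0.05 against 3.8% of all genes.

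**Figure D5:**
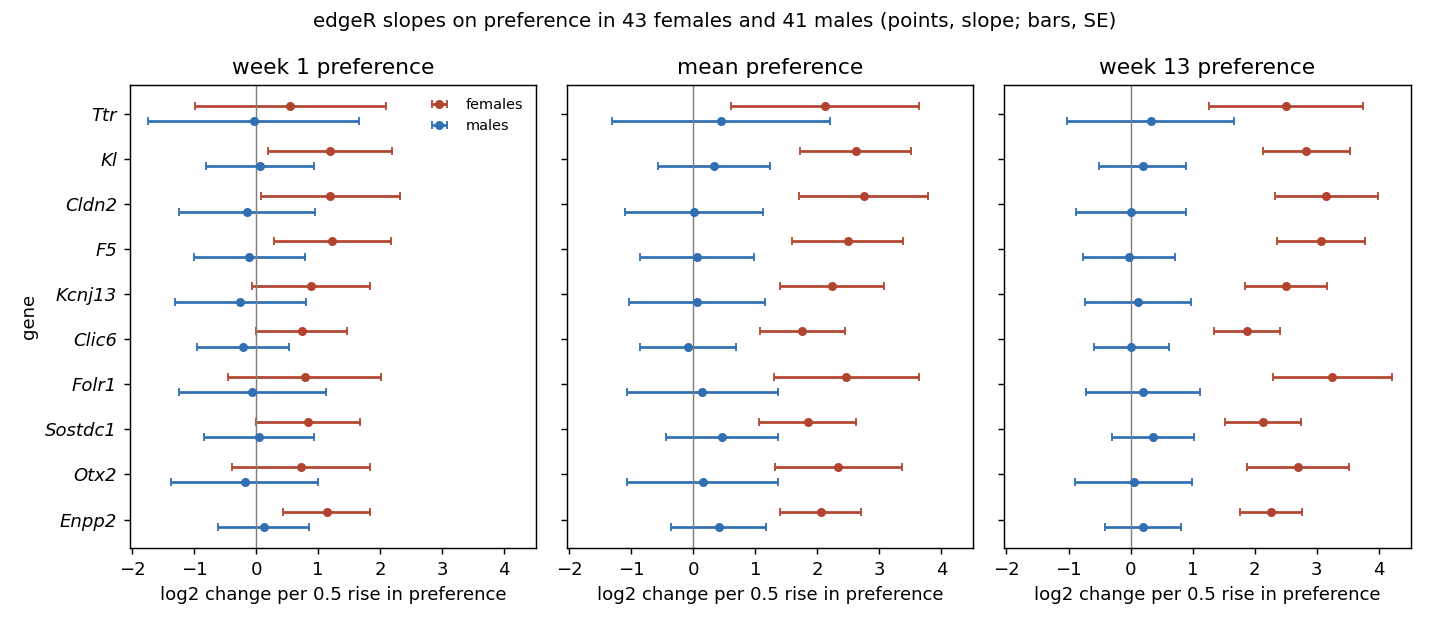
Slopes from edgeR of each gene on week 1, mean and week 13 preference, as log2 change per 0.5 rise in preference, in 43 females (upper point of each pair) and 41 males (lower point); bars are SE. Female slopes on week 13 preference lie between 1.88 and 3.25 and male slopes between -0.02 and 0.37, and none passed at an adjusted p under 0.05.

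These female slopes fell when 2 libraries were left out. The 2 were picked for their counts of the 10 genes and their animals had a high preference, so a fall was built in. No other pair was left out for comparison. Females 38 and 17 held the most counts of the 10 genes among females, 796921 and 533887, and drank with a week 13 preference of 0.679 and 0.639. Female 38 had 477 CPM of Kl, 134.2 CPM of Kcnj13 and 5436 CPM of Enpp2, the highest Kl of all libraries. Without female 38 the median slope of the 10 genes on week 13 preference in females was 1.99, against 2.60 with it, and 9 still had an unadjusted p under 0.05 (5.82% of all genes in either direction). Without both it was 1.48, from 0.67 to 2.09, and 2 had such a p (3.96% of all genes). On mean preference the median slope in females was 2.29, and 0.27 without both, with 0 such p (3.85% of all genes). The difference of the sexes for week 13 had 7 unadjusted p under 0.05 with all libraries, 1 without female 38 (5.18% of all genes) and 0 without both (5.23%). In all animals there were 9 for week 13 with all libraries, 2 without female 38 (3.24%) and 0 without both (2.53%).

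Set against ethanol intake in g per kg of body weight in place of preference, an alternative measure, 9 of the 10 genes passed for week 13 in females, all but Ttr, where 3.5% of all genes did (edgeR). Slopes per 10 g/kg were 1.91 ± 0.39 for Clic6 (adjusted p = 0.00152), 2.24 ± 0.36 for Enpp2 (0.000168) and 3.06 ± 0.51 for F5 (0.000223). Without females 38 and 17, none of the 10 passed (0.0123% of all genes). Their slopes then ran from 1.22 ± 0.52 (Clic6) to 2.96 ± 1.02 (Folr1), with a median of 2.11 against 2.64 with all libraries. The smallest adjusted p was 0.801, and 9 had an unadjusted p under 0.05 (5.7% of all genes). DESeq2 on preference called 8 genes for week 13 in females, all but Ttr and Otx2, where 1.26% of all genes passed, and 0 without these 2 females (0%), when the 10 slopes ran from 0.68 to 2.14 and 5 had an unadjusted p under 0.05 (4.56% of all genes). For week 13 in females, Kl (3.85 ± 0.81) and Cldn2 (4.53 ± 0.99) passed in edgeR with sheet run as covariate (adjusted p = 0.0498 each, 0.147% of all genes), and Enpp2 alone with no filter on low counts (0.259%). With intake, Kl, F5 and Enpp2 passed for the mean over 13 weeks in females (1.26%) and for week 13 in all animals (0.447%), and 0 of the 10 in either fit without females 38 and 17 (0.00613% and 0% of all genes), with median slopes of 0.84 and 1.16.

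Of the 45 further choroid plexus genes, 45 had a positive slope on week 13 preference in females with a median of 1.72, and 23 had one in males with a median of 0.01, beside medians over all genes within 0.01 of 0. Only Col8a1, a collagen gene of the list, passed in females, with 2.03 ± 0.39 (edgeR adjusted p = 0.0175), where 0.0368% of all genes did. The 27 ependymal genes had median slopes of 1.35 in females and 0.27 in males, with 27 and 24 above 0 and 0 called in either sex (0.0368% of all genes in females, 0% in males). They thus sloped the same way as the 10 genes in females, and their part in these slopes was not tested. Markers of striatal medium spiny neurons sloped the other way in females, where 0 of 13 were above 0 with a median of -0.85 and 12 had an unadjusted p under 0.05 (8.67% of all genes). In males 13 of 13 were above 0 with a median of 0.64, and the difference of the sexes had a median of -1.55 with 13 unadjusted p under 0.05 (6.26% of all genes). None of the 13 was called in these fits. Their summed level was 990 to 7289 CPM in females and 933 to 8231 CPM in males, and their part in the slopes of the 10 genes was not tested.

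Log2 CPM of Ttr alone was also correlated with preference in each sex, 6 relations in all. Only week 13 in females had an unadjusted permutation p under 0.05 (r = 0.314, p = 0.0398, adjusted 0.239; rho = 0.272, p = 0.0789, adjusted 0.473). Leaving out the 2 animals of extreme preference gave r = 0.228, and the 4 runs gave 0.485, 0.788, -0.375 and 0.116, so its sign was not the same in all runs. In males r with week 13 preference was 0.0600 (permutation p = 0.709, adjusted 0.851; rho = 0.0411, p = 0.798, adjusted 0.798).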

How the data were processed

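RNA of 84 laser-dissected CeA samples was measured as deposited counts of reads per gene, which the authors left without normalization, per the labels. Per the submitters' processing notes the tools were STAR, featureCounts 1.6.0 of Subread, FastQC and DESeq2, with build GRCm38 (mm10). Whether counting used strand is not given in the sources used here. Another 8 columns of the table belong to no sample and were not used. Sex and weekly preference came from the labels, and mean preference is the mean of the 13 weekly ratios.

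The 10 genes, the marker lists and the tests were chosen with earlier results of these data known. The genes named are all 10, the 20 others most alike over 84 libraries, further choroid plexus genes in that order, and up to 3 genes of each other list. Values are CPM with TMM-scaled totals, and log2 CPM has a prior count of 2. Genes were kept by edgeR's filterByExpr (minimum count 10, minimum total 15). They were fitted with edgeR 4.0.16 (robust quasi-likelihood, Benjamini-Hochberg adjustment, threshold 0.05), with sex as a term in fits of all animals. DESeq2 1.42.0 and limma 3.58.1 were alternatives, as were no filter on low counts, other size factors, sheet run as covariate, intake in place of preference, ranks and left-out libraries. Fits with the most member-rich female libraries left out, the test of sex by week 13 preference, the curve in Ttr and the tests of Ttr by sex, run and preference were added after the data were seen. Permutation tests used 100000 resamples in Python 3.11.15 with scipy 1.17.1. On counts simulated for mean preference in all animals over 16320 genes, 67% of genes changed by 0.5 and 92% of those changed by 1 (log2) were recovered. The changed genes were drawn at random from all tested genes. Recovery was not measured for the 10 genes, which vary widely between animals and whose slopes of 0.89 to 1.59 in that fit did not pass. Replicate numbers only name animals. Library depth of 24118965 to 42036566 counts makes 3 counts worth 0.0714 to 0.124 CPM, which covers counting error only. Animals were separate, but up to 3 shared a family, so p-values treat relatives as independent.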

Additional observations from a re-analysis of the deposited data

How the results depend on the processing

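No paired analysis was possible because replicate numbers here only name animals, in listing order, and pair none. None of the 10 genes passed for preference or sex by the edgeR test as designed. Under alternatives, 3 passed for mean preference in females and 3 for week 13 in all animals with intake in place of preference (1.26% and 0.447% of all genes). For week 13 in females, 1 passed with no filter on low counts (0.259% of all genes), 8 with DESeq2 (1.26%), 2 with sheet run as covariate (0.147%) and 9 with intake (3.5%). The intake and DESeq2 calls fell to 0 without females 38 and 17. The slope of Sostdc1 on mean preference in females turned to -0.45 without females 38 and 17, in edgeR and again in DESeq2 (-0.45), and the cause was not tested. In the week 13 fits of females all 10 slopes stayed above 0 under every alternative run, from 0.67 to 6.41. In males the median slope on mean preference, 0.15, was -0.17 with sheet run as covariate, -0.13 on ranks and 1.55 in limma-voom. In females it was 3.44 for mean and 3.84 for week 1 preference with sheet run as covariate, against 2.29 and 0.86, and -0.26 for week 1 in limma-voom. Counts of the 10 genes with an unadjusted p under 0.05 also differed in limma-voom. For week 13 in all animals it gave 3 (679 of 16320 genes) against 9 in edgeR, and for sex by week 13 it gave 1 (857) against 7. For week 13 in females both gave 9 (1176), and for mean preference in all animals limma-voom gave 5 (547) against 2.

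The median slope of the other genes on Ttr, 0.38, was 0.92 when each was set against the mean of the other 8 in place of Ttr. Of the 20 most alike genes, 13 were shared with the ranking in males alone, 13 with values centred on sheet runs and 12 with Pearson's r. Depth limits Folr1, Otx2, Cldn2 and Kcnj13 at their low ends, where a library held few counts.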
